A study of Mus musculus with 4 samples.

Results

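The CCR4-NOT complex shortens the poly(A) tails of mRNA, and its transcripts were measured in invariant natural killer T (iNKT) cells from mice labelled Mettl3KO or wild type. The members were 10 Cnot genes, found by symbol among the 53715 gene IDs of the deposited count table: Cnot1, Cnot2, Cnot3, Cnot4, Cnot6, Cnot6l, Cnot7, Cnot8, Cnot10 and Cnot11. All 10 passed the filter on low counts and were among the 14185 genes tested. The iNKT cells were live thymocytes sorted as positive for TCRβ and for a CD1d tetramer, and their RNA was sequenced with Smart-seq2, which copies whole mRNAs without recording the strand. The Mettl3KO mice carried floxed Mettl3 alleles and a Cre recombinase under Cd4 control (Mettl3fl/flCD4-cre, here Mettl3KO, 2 libraries), and the others were wild type (WT, 2 libraries), all C57BL/6 and 6 to 8 weeks old. The labels do not say whether WT mice carried Cre or floxed alleles, nor whether each library is its own animal. The p-values therefore reflect only how far these libraries differ from each other, which may be technical. Cd4-Cre acts from the CD4+CD8+ stage of thymocytes onwards.

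METTL3 is the catalytic subunit of the enzyme that writes N6-methyladenosine (m6A) on mRNA. YTHDF2 binds m6A and recruits CCR4-NOT through the scaffold subunit CNOT1, after which the tail is shortened and the mRNA is decapped or degraded by the exosome. The complex holds a pair of deadenylase types, a CAF1-type subunit (CNOT7 or CNOT8) and a CCR4-type subunit (CNOT6 or CNOT6L), and CNOT7 and CNOT8, like CNOT6 and CNOT6L, take the same place in it. In mice, the subunit CNOT3 is needed for the positive selection of thymocytes.

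Levels are CPM (counts scaled to library size by TMM, the trimmed mean of M-values) unless another scale is named, and fold changes are Mettl3KO over WT on the log2 scale with standard error (SE), from the quasi-likelihood test of edgeR, with p-values adjusted by Benjamini-Hochberg over all genes tested. Total counts were 25402792 and 24374587 in Mettl3KO and 28316016 and 25931610 in WT, and each member held between 585 and 8432 counts in a library. Mettl3 itself was at 78.1 and 91.4 CPM in Mettl3KO and 92.2 and 123.6 CPM in WT (log2 fold change -0.35, edgeR adjusted p = 0.357), with a log2 fold change of -0.13 when WT replicate 2 was left out and -0.56 when WT replicate 1 was. Its counts cover the whole gene, including exons outside the deleted part, so they do not check the deletion. Together, 13 iNKT markers summed to 6294 and 6185 CPM in Mettl3KO and 7298 and 8233 CPM in WT. They include general T cell genes such as Trac (1612 and 1601 CPM in Mettl3KO), so the sum does not measure iNKT cells alone. Of the 13, 1 rose and 3 fell, where 2.59% of all genes tested were called by edgeR. The one that rose was Slamf6 (log2 fold change 0.80), and those that fell were Trac (-0.58), Klrb1c (-1.43) and Tbx21 (-0.98). Zbtb16, which encodes PLZF, was at 352.7 and 350.4 CPM in Mettl3KO and 255.5 and 192.3 CPM in WT and did not pass (edgeR adjusted p = 0.0659). The receptor segments Trav11 and Traj18 were at or below 3.49 CPM in all 4, but their exons span only 343 and 66 bases. Per kilobase of exon, Traj18 was at 24.7 and 34.7 CPM in Mettl3KO and 52.8 and 50.7 in WT. Trav11 was at 2.27 and 3.39 in Mettl3KO and 5.29 and 2.90 in WT on that scale. Such short segments do not show how many cells carried the receptor. Markers of other cell types were also detected and differed between genotypes. The 12 B cell markers, of which 4 rose (the MHC class II genes H2-Aa, H2-Ab1 and H2-Eb1, and Cd74) and 0 fell, summed to 2116 and 2233 CPM in Mettl3KO and 101.0 and 238.0 CPM in WT, with Pax5 at 0 in all 4 libraries. The 15 myeloid markers summed to 512.8 and 565.7 CPM in Mettl3KO and 158.9 and 179.1 CPM in WT. Of these, 3 rose (Lyz2, Csf1r and Cd209a) and 1 fell (Fcer1g, log2 fold change -1.71). Lyz2 alone was at 324.6 and 385.6 CPM in Mettl3KO and 29.6 and 47.5 CPM in WT. Itgam was near the floor and not tested, with 7 and 4 counts in Mettl3KO and 0 in both WT libraries. The 12 CD4+CD8+ thymocyte markers, of which 1 rose and 0 fell, summed to 1758 and 1666 CPM in Mettl3KO and 1072 and 1227 CPM in WT. Fewer cells of a type and less RNA per cell cannot be told apart in such bulk samples, and the part of these transcripts in the results below was not tested.

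No CCR4-NOT subunit mRNA passed the test for a difference between Mettl3KO and WT. Of the 10 subunits, 0 rose and 0 fell by edgeR, where 2.59% of all genes tested were called (1.09% higher and 1.51% lower). Over all genes, 154 were called higher and 214 lower, against 208 and 197 with total-count scaling and 135 and 398 with the trend of fold change with gene length removed. DESeq2, which called 9.45% of all genes, and limma voom, which called 1.99%, also called 0 of the 10. Of the subunits 1, Cnot7, had an unadjusted edgeR p under 0.05, as did 20.2% of all genes. The 10 together summed to 1223 and 1159 CPM in Mettl3KO and 1070 and 1239 CPM in WT, so the genotypes overlapped. Their median log2 fold change was 0.045, against 0.016 over all genes tested. For 9 of the 10 the change was smaller than the median size of change over all genes, which was 0.36 on the log2 scale. The 2 libraries of each genotype stood apart for 4 subunits, Cnot2, Cnot3 and Cnot8 being higher and Cnot7 lower in both Mettl3KO libraries. That is 40% of the subunits, against 50.3% of all genes tested (25.4% higher and 24.9% lower). These misses do not show equal levels. The 95% intervals, each taken alone, ran from -1.04 (Cnot7) to 0.77 (Cnot1), and those of 9 subunits lay within 1 log2 unit of no change.

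**Figure D1:**
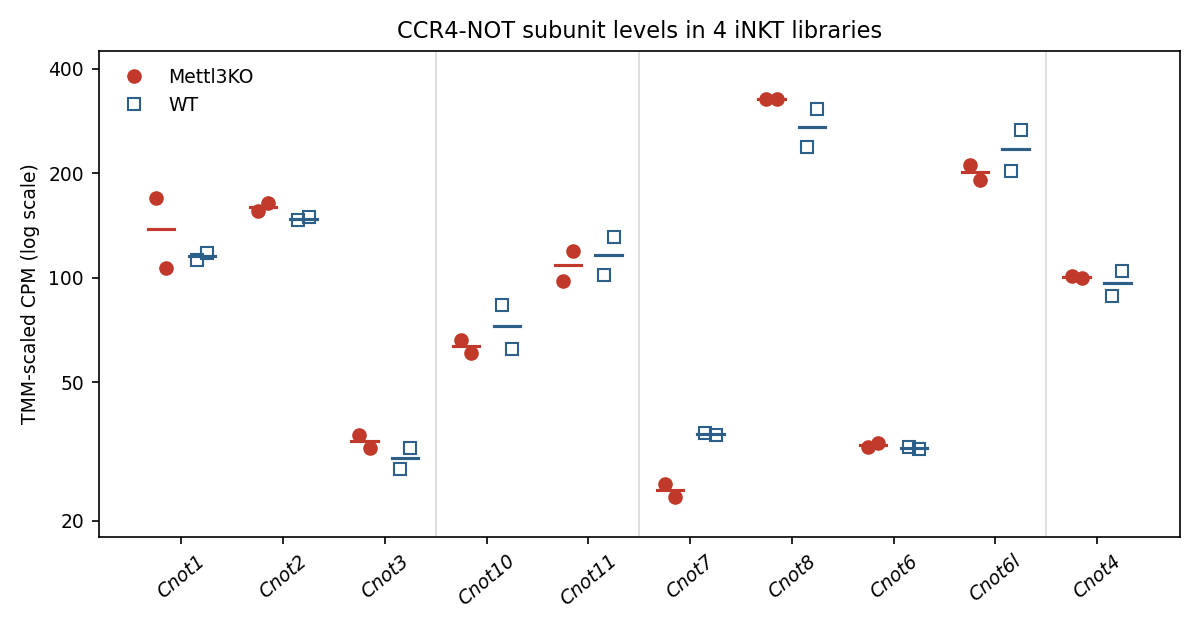
TMM-scaled CPM (log axis) of the 10 CCR4-NOT subunit genes in each library, with Mettl3KO as filled red circles left of WT as open blue squares. Horizontal bars are means of 2 libraries, and thin vertical lines part the scaffold and NOT module, the CNOT10 and CNOT11 pair, the deadenylases and Cnot4. Both Mettl3KO points of Cnot7 lie below both WT points, and for Cnot1 a single Mettl3KO library, at 170.2 CPM, stands above the other 3.

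Among the deadenylases, Cnot7 (ENSMUSG00000031601.16; GRCm38 chromosome 8, 40492540 to 40515847, minus strand; a protein-coding gene) had the smallest p of the 10. It was at 25.5 and 23.5 CPM in Mettl3KO and at 35.7 and 35.3 CPM in WT. Both Mettl3KO libraries were below both WT libraries, and libraries of a genotype differed by at most 1.09 times. The log2 fold change was -0.53 (SE 0.22, 95% interval -1.04 to -0.03), with an unadjusted p of 0.0409 and an edgeR adjusted p of 0.222, so it did not pass the test over all genes. It was negative in each of the 12 other settings tried, between -0.64 and -0.48, and called in none of them (lowest adjusted p = 0.144). A larger change was seen in 35.9% of all genes tested. Zdhhc2, on the opposite strand, shares 247 exon bases with Cnot7; it had 125 and 125 counts in Mettl3KO and 327 and 124 in WT, and its part in the Cnot7 value was not tested.

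Cnot8, which encodes the alternative CAF1-type deadenylase, lay on GRCm38 chromosome 11 (58104153 to 58118594, plus strand; ENSMUSG00000020515.13, protein coding). It had the highest level of the 10, also per kilobase, at 327.7 and 325.9 CPM in Mettl3KO and 237.9 and 306.6 CPM in WT. The Mettl3KO libraries were both above WT, but WT replicate 2 came close to them. The change of 0.26 on the log2 scale missed the threshold (SE 0.14, edgeR adjusted p = 0.338; interval of 95% from -0.06 to 0.59). With WT replicate 2 left out it was 0.45, and with WT replicate 1 left out 0.08. The pseudogene Gm18860, which shares sequence with Cnot8, had 338 and 196 counts in Mettl3KO and 169 and 96 in WT, where Cnot8 had 8432 and 8123 in Mettl3KO and 6689 and 7703 in WT.

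The ratio of this pair was higher in both Mettl3KO libraries than in either WT library. Per kilobase of exon there was 28.4 and 30.7 times as much Cnot8 as Cnot7 in Mettl3KO, against 14.7 and 19.2 times in WT. As a share of the pair, Cnot8 made up 96.7% ± 0.17 in Mettl3KO and 94.3% ± 0.995 in WT (SD, n = 2 each). The groups did not overlap, and the difference of 2.37 percentage points gave an exact two-sided permutation p of 0.333, the smallest that 2 against 2 libraries allow. On raw counts the difference was 4.71 points. Gene length is the same in every library, so it sets the size of the ratio and not the order of the libraries. A scale chosen after seeing the data used the length of the principal transcript (GENCODE M21). Per kilobase of it, Cnot8 was at 156.1 and 155.3 CPM in Mettl3KO and 113.3 and 146.1 in WT. Cnot7 was then at 8.55 and 7.87 in Mettl3KO and 11.96 and 11.83 in WT, a smaller ratio than per kilobase of exon.

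The CCR4-type deadenylase genes showed no such separation. Cnot6l (ENSMUSG00000034724.17, protein coding) was at 210.7 and 191.1 CPM in Mettl3KO and at 202.6 and 266.7 CPM in WT. WT replicate 2 was the high library, and WT replicate 1 lay between the Mettl3KO values. Its log2 fold change was -0.22 (SE 0.15, edgeR adjusted p = 0.483), but -0.02 when WT replicate 2 was left out and -0.42 when WT replicate 1 was. Cnot6 (ENSMUSG00000020362.13; GRCm38 chromosome 11, 49671503 to 49712723, minus strand; a protein-coding gene) was the subunit with the smallest change, at 32.6 and 33.5 CPM in Mettl3KO and 32.7 and 32.1 CPM in WT, with a log2 fold change of 0.03 (SE 0.21). Cnot6l was 4.14 and 3.65 times as abundant as Cnot6 per kilobase of exon in Mettl3KO, and 3.98 and 5.32 times in WT. Its share of the pair was 79.5% ± 1.43 in Mettl3KO and 82.0% ± 3.02 in WT (SD, n = 2 each), and these overlapped (exact two-sided permutation p = 0.667). Per kilobase of principal transcript, Cnot6l was at 24.61 and 22.32 CPM in Mettl3KO and 23.66 and 31.15 in WT. Cnot6 was then at 13.07 and 13.43 in Mettl3KO and 13.07 and 12.86 in WT, a smaller ratio than per kilobase of exon.

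**Figure D2:**
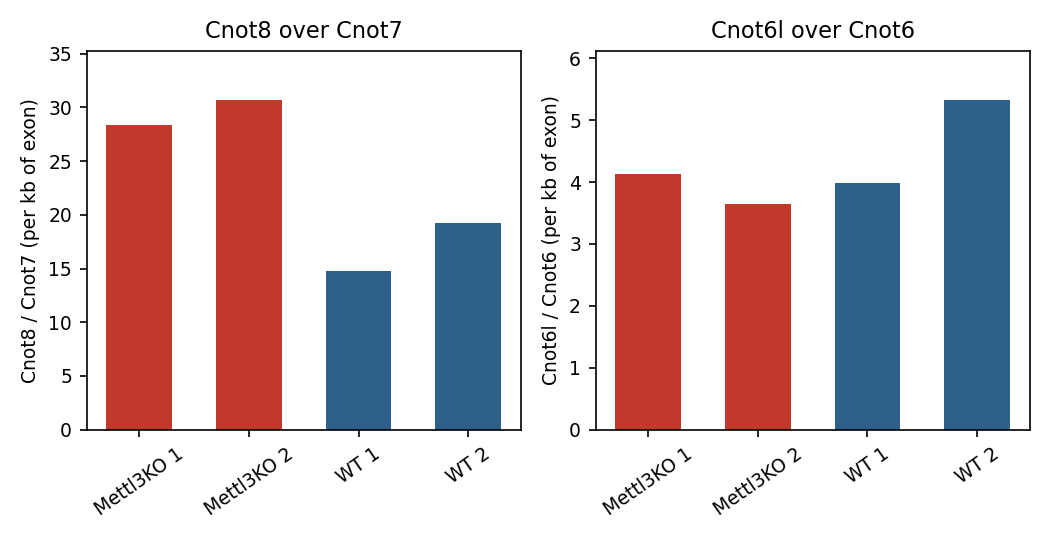
Ratio of the more abundant to the less abundant deadenylase gene in each library, from counts per kilobase of exon, for the CAF1-type pair (left panel) and the CCR4-type pair (right panel), with Mettl3KO in red left of WT in blue. Each bar is 1 library and both axes start at 0. The size of each ratio depends on the gene length used. The Cnot8 over Cnot7 bars reach 28.4 and 30.7 in Mettl3KO and 14.7 and 19.2 in WT, while the Cnot6l over Cnot6 bars overlap between genotypes.

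Counts of such paralogues can be trusted only where reads tell them apart. The coding sequences of Cnot6l and Cnot6, from the GENCODE M21 principal transcripts, were identical at 73.4% of aligned bases, and those of Cnot8 and Cnot7 at 72.3%. The longest identical run in either alignment was 20 bases. The stretch around that run in Cnot6l (chromosome 5, coding bases 1259 to 1318) and Cnot6 (chromosome 11, coding bases 1265 to 1324) is shown because it holds the longest identical run of the CCR4-type pair, with the bases that differ in capitals.
Cnot6l: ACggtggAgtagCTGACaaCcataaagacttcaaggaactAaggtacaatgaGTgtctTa
Cnot6: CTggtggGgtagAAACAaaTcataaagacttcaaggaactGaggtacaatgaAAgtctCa
Over these 60 bases the genes differ at 13 positions. No stretch of 50 bases in the Cnot6 or Cnot6l principal transcript occurred in a transcript of any other gene. Sharing was found for 4 members, at 32.1% of such stretches for Cnot3, 10.1% for Cnot1, 9.85% for Cnot8 and 5.05% for Cnot7. The sharers were processed pseudogenes (Cnot1, Cnot3 and Cnot8) and overlapping genes on the other strand (Cnot1, Cnot3 and Cnot7), so the counts of these 4 are less certain. The search covered principal transcripts only. Over all its exons, Cnot2 also shares 5.69% of bases with a gene on the other strand, so its counts are less certain too. The pseudogenes Gm6158 and Gm9207, like Cnot1 and Cnot3 in sequence, had 0 counts in all 4 libraries, and Leng1, which overlaps Cnot3, had 40 and 42 counts in Mettl3KO and 47 and 26 in WT.

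The genes of the scaffold and the NOT module had small positive log2 fold changes that did not pass the test. Cnot1 (ENSMUSG00000036550.16, GRCm38 chromosome 8, 95719451 to 95807464, minus strand, a protein-coding gene) encodes the scaffold subunit, which binds YTHDF2. It was at 170.2 and 106.7 CPM in Mettl3KO and 112.7 and 118.0 CPM in WT. Mettl3KO replicate 1 was high and replicate 2 was the lowest of all 4, a 1.60-fold gap within the genotype. The change of 0.27 on the log2 scale (edgeR adjusted p = 0.558, SE 0.22) was -0.11 without Mettl3KO replicate 1 and 0.56 without replicate 2, so single libraries set its direction. Mettl3KO replicate 1 also had the most counts of 4930513N10Rik, an antisense gene that shares 132 exon bases with Cnot1. It had 109 and 58 counts in Mettl3KO and 11 and 17 in WT, and its part in the Cnot1 value was not tested.

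Cnot2 (ENSMUSG00000020166.15; GRCm38 chromosome 10, 116485161 to 116581511, minus strand; a protein-coding gene), a NOT module subunit, reached 155.8 and 164.7 CPM in Mettl3KO and 146.4 and 149.6 CPM in WT. The groups did not overlap, yet the change on the log2 scale was 0.11 (edgeR adjusted p = 0.664, SE 0.12). An opposite-strand transcript, 5330438D12Rik, shares 232 exon bases with Cnot2 and had 95 and 148 counts in Mettl3KO and 27 and 94 in WT, and its part in the Cnot2 value was not tested. Cnot3, the partner of CNOT2 in that module (ENSMUSG00000035632.16; GRCm38 chromosome 7, 3645268 to 3661109, plus strand; a protein-coding gene), was at 35.2 and 32.5 CPM in Mettl3KO and 28.3 and 32.3 CPM in WT. The gap between the nearest libraries was small, and the log2 fold change was 0.16 (SE 0.21, edgeR adjusted p = 0.737).

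The module of CNOT10 and CNOT11, which docks on the other end of CNOT1, had small negative log2 fold changes that did not pass the test. Cnot10 (ENSMUSG00000056167.7; GRCm38 chromosome 9, 114585878 to 114640184, minus strand; a protein-coding gene) stood at 66.2 and 60.7 CPM in Mettl3KO and 83.4 and 62.4 CPM in WT. WT replicate 1 was the high library, and the change of -0.20 on the log2 scale (edgeR adjusted p = 0.619, SE 0.19) was 0.02 without it and -0.40 without WT replicate 2. Cnot11 (ENSMUSG00000003135.15; GRCm38 chromosome 1, 39534992 to 39546889, plus strand; a protein-coding gene) was at 97.9 and 119.8 CPM in Mettl3KO and 102.0 and 131.2 CPM in WT. In both genotypes replicate 2 was above replicate 1, and the log2 fold change was -0.10 (SE 0.18, edgeR adjusted p = 0.823). It was positive without Mettl3KO replicate 1 or WT replicate 2.

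Cnot4 (ENSMUSG00000038784.13; GRCm38 chromosome 6, 35022065 to 35133724, minus strand; a protein-coding gene) encodes a ubiquitin ligase that is only loosely bound to the mammalian complex. It was at 101.4 and 100.1 CPM in Mettl3KO and 88.7 and 104.8 CPM in WT. Both Mettl3KO values lay between those of WT (log2 fold change 0.06, SE 0.15, edgeR adjusted p = 0.878). Cnot9, a subunit outside the 10 that binds recruiter proteins, was at 186.5 and 197.6 CPM in Mettl3KO and 178.4 and 182.9 CPM in WT, a difference of 0.09 on the log2 scale (edgeR adjusted p = 0.736, SE 0.12).

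**Figure D3:**
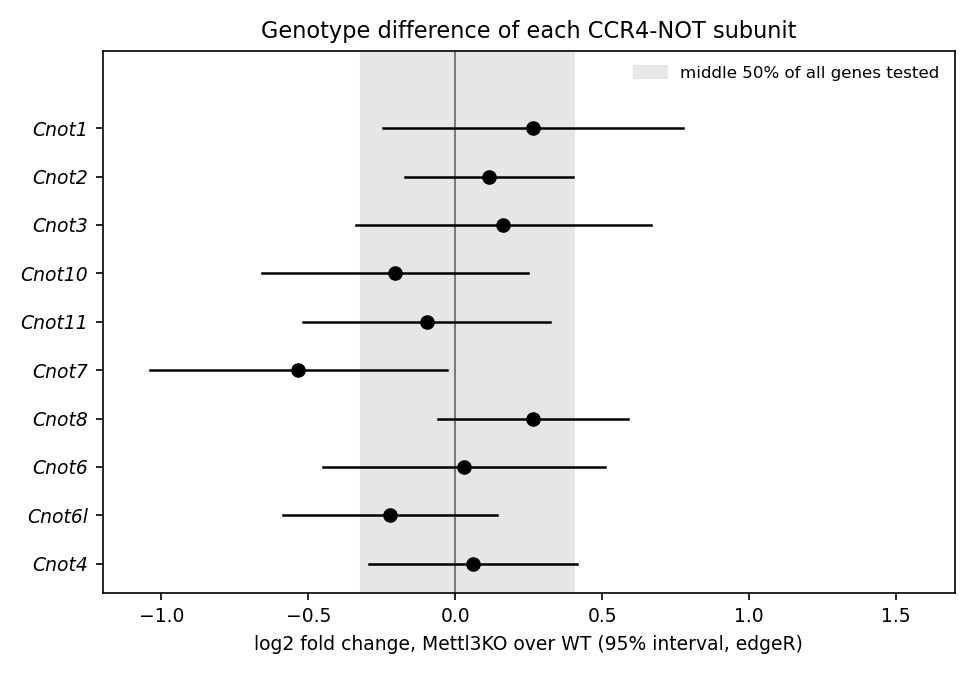
Log2 fold change of each subunit gene, Mettl3KO over WT, from edgeR (dots) with its 95% interval (lines), and the range of the middle 50% of all genes tested in grey. The interval of Cnot7, -1.04 to -0.03, is the one that leaves out 0, and all other intervals include it.

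Per kilobase, which allows levels of different genes to be compared, the subunits spanned a wide range. Cnot8 led with 124.0 ± 0.48 CPM per kilobase of exon in Mettl3KO and 103.3 ± 18.4 in WT (SD, n = 2 each). Next came Cnot2 at 39.3 ± 1.53 in Mettl3KO and 36.3 ± 0.56 in WT, and Cnot11 at 31.0 ± 4.43 in Mettl3KO and 33.2 ± 5.88 in WT, and these neighbours overlapped across the 4 libraries. Cnot6l followed at 19.5 ± 1.34 in Mettl3KO and 22.7 ± 4.40 in WT, apart from those above and below it. Cnot10, Cnot4 and Cnot1 then lay between 6.22 and 12.6 in the 4 libraries and overlapped as neighbours, and Cnot7, Cnot6 and Cnot3 lay between 3.97 and 6.13 and did so too. With the length of the principal transcript, a scale chosen after seeing the data, Cnot8, Cnot2 and Cnot11 kept their places and Cnot4 stood next, overlapping Cnot11 and Cnot6l. On that scale Cnot7 was at 8.21 ± 0.48 in Mettl3KO and 11.9 ± 0.10 in WT, and its range overlapped that of Cnot3, which lay between 10.02 and 12.48 in the 4 libraries.

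The transcripts differed in the letters GGACT, a common form of the m6A consensus, searched on the sense strand of the principal transcripts. Cnot1 held 11 matches, all in its coding sequence, Cnot3 held 0, and the other 8 held between 1 and 4. Over all tested genes with a principal transcript, 91.9% held at least 1 match, at a median of 1.05 per kilobase, and the subunits ranged from 0 (Cnot3) to 1.60 (Cnot6). A match is a description of the sequence, since m6A was not measured in these libraries.

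Among the genes whose products recruit the complex or act after it, edgeR called 1. Of 17 RNA-binding recruiters tested, 1 rose and 0 fell, with a median log2 fold change of -0.07. Of all genes tested, 2.59% were called by edgeR, 1.09% higher and 1.51% lower. An unadjusted edgeR p under 0.05 was found for 3 of the 17 and for 20.2% of all genes. The one that rose was Ythdf2, an m6A reader, at 574.5 and 547.9 CPM in Mettl3KO and 350.8 and 320.4 CPM in WT. All Mettl3KO values were above WT (log2 fold change 0.74, SE 0.10, edgeR adjusted p = 0.0137). With WT replicate 2, Mettl3KO replicate 1 or Mettl3KO replicate 2 left out, the log2 fold change was 0.67, 0.71 and 0.77, about as large, but did not pass (adjusted p of 0.0599, 0.131 and 0.112). The recruiters with the next smallest p, Cpeb2, Tnrc6a and Zfp36, had log2 fold changes of -1.59, 0.52 and -0.23 and did not pass (edgeR adjusted p of 0.153, 0.170 and 0.315). The m6A readers Ythdf1 and Ythdf3, also in this list, had log2 fold changes of 0.52 and -0.03 and did not pass (edgeR adjusted p of 0.382 and 0.958).

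Of the BTG/TOB adaptors, antiproliferative proteins that bind the CAF1-type deadenylases, 0 of 5 tested passed by edgeR, with a median log2 fold change of -0.14. Btg2 was at 905.3 and 936.2 CPM in Mettl3KO and 1174 and 1382 CPM in WT (log2 fold change -0.47, SE 0.10, edgeR adjusted p = 0.0548). Tob1 was at 53.2 and 54.6 CPM in Mettl3KO and 27.5 and 35.3 CPM in WT (log2 fold change 0.79, SE 0.21, edgeR adjusted p = 0.0977). DESeq2 called both (adjusted p = 0.000669 for Btg2 and 0.0240 for Tob1), where it called 9.45% of all genes. An unadjusted edgeR p under 0.05 was found for 2 of the 5 and for 20.2% of all genes. Btg3, Tob2 and Btg1 had log2 fold changes of -0.62, -0.14 and 0.05.

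None of the other lists held a called gene by edgeR or DESeq2, which called 2.59% and 9.45% of all genes. Across all genes tested, 20.2% had an unadjusted edgeR p under 0.05. Of 7 genes of other deadenylases and of relatives of the CCR4-type ones, 0 passed and 1 had an unadjusted edgeR p under 0.05, and the median was 0.00055. Noct, a rhythmically expressed relative of the CCR4-type deadenylases, was at 21.9 and 30.9 CPM in Mettl3KO and 15.0 and 11.3 CPM in WT (log2 fold change 0.99, edgeR adjusted p = 0.137), and Angel2, Pan2, Parn, Angel1, Pan3 and Pde12 had log2 fold changes of 0.26, 0.36, -0.26, -0.27, -0.11 and 0.00055. Of 18 genes of decapping and decay from the 5′ end, 0 passed and 3 had an unadjusted p under 0.05, with a median of -0.06. Dcp2, the decapping enzyme, and Dcp1a, its activator, had log2 fold changes of 0.71 and -0.48, the LSM ring gene Lsm5 -0.83 and the exonuclease gene Xrn1 -0.31. Of 14 genes of the RNA exosome and the SKI complex, 0 passed and 1 had an unadjusted p under 0.05 (median -0.06). Exosc4, Exosc1, Exosc9 and Dis3 had log2 fold changes of 0.37, 0.48, -0.29 and -0.29. Of 7 genes of poly(A)-binding proteins and their partners, 0 passed and 0 had an unadjusted p under 0.05 (median 0.03). Eif4g1, Paip2b, Paip1, Paip2, Eif4g3, Pabpc1 and Pabpc4 had log2 fold changes of 0.25, -0.46, 0.17, -0.07, 0.05, 0.02 and 0.03.

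**Figure D4:**
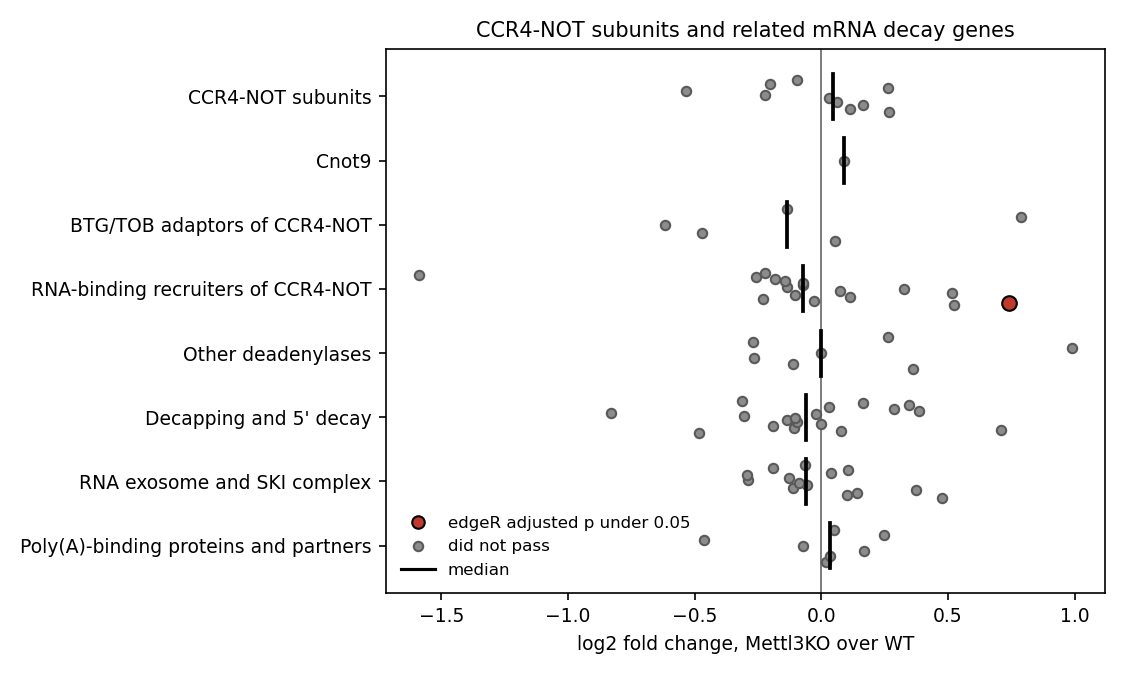
Log2 fold change, Mettl3KO over WT, of each tested gene in the CCR4-NOT complex and in related lists of mRNA decay genes, with 1 dot per gene and a vertical bar at each list's median. The single red dot is Ythdf2, at 0.74, and the 10 CCR4-NOT subunits lie between -0.53 and 0.27.

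The values of Cnot2, Cnot3, Cnot6, Cnot6l, Cnot7 and Cnot8 kept their sign whichever library was left out, while those of Cnot1, Cnot4, Cnot10 and Cnot11 did not. After the trend of fold change with gene length was removed, the median of all genes moved from 0.016 to -0.09, as values were not centred again. Cnot2, Cnot4 and Cnot6 then turned slightly negative while staying above that median, so these turns cannot be told apart from a shift of the whole table. Read against 0, of the 10 only Cnot3, Cnot6l, Cnot7 and Cnot8 kept 1 sign in all settings tried.

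**Figure D5:**
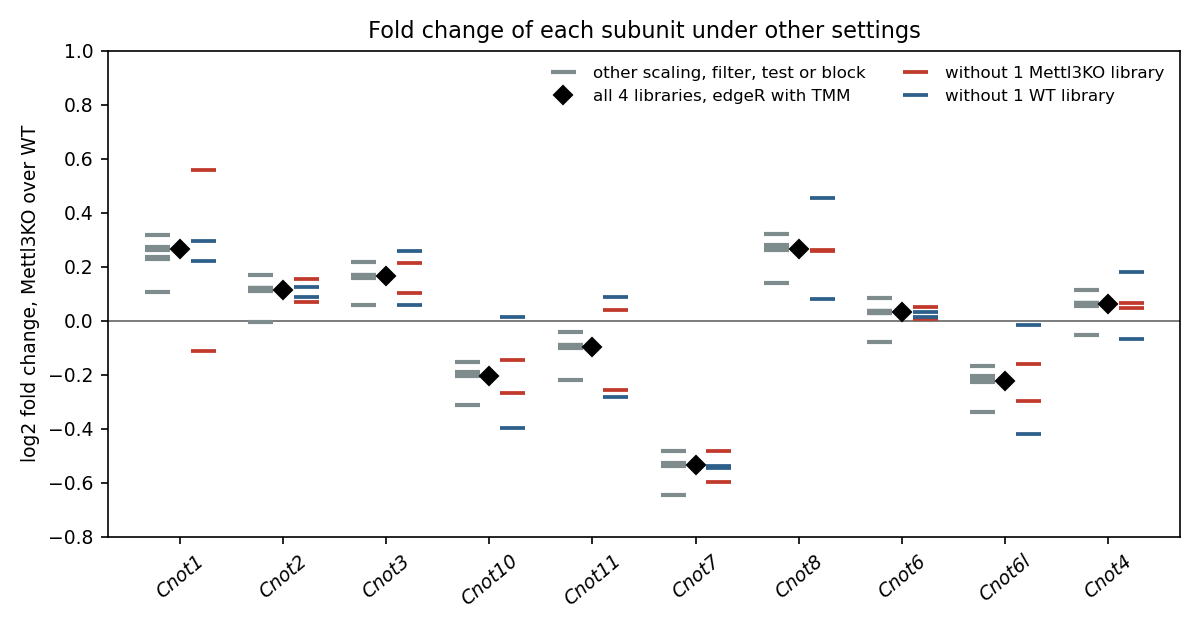
Log2 fold change of each subunit gene, Mettl3KO over WT, with all 4 libraries (black diamonds), under other scalings, filters, tests and the block (grey bars), and without 1 Mettl3KO library (red bars) or 1 WT library (blue bars). Cnot7 stays between -0.64 and -0.48, while Cnot1 ranges from -0.11 to 0.56.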

How the data were processed

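The 4 RNA-seq libraries, 2 Mettl3KO and 2 WT, were grouped by the sample labels. The authors deposited raw read counts per gene, 1 column per library, not pooled. The submitters' processing notes name build mm10 and HTSeq 0.6.1, STAR 2.6.0a, DESeq2 1.18.1 and FastQC 0.11.5. The step each tool served, the annotation release and the strand setting: not given in the sources used here. Without strand, overlapping and antisense genes cannot be told apart. Of the 53715 IDs, 53620 matched GENCODE M21 (GRCm38); coordinates are printed only where ID versions matched, so none is given for Cnot6l.

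In R 4.3.3, counts were filtered by filterByExpr, scaled by TMM and tested with edgeR 4.0.16 (glmQLFit and glmQLFTest, robust), two-sided, on all 4 libraries with 2 residual degrees of freedom, at an adjusted p under 0.05, after tests on simulated data. DESeq2 1.42.0 and limma 3.58.1 voom were alternatives, with other scalings, filters, a replicate block, a length-trend correction and each library left out. SE is the log2 fold change over the square root of F. Lengths are exon unions or APPRIS principal transcripts. Coding sequences were aligned with Biopython 1.88.

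The members and lists were chosen with earlier results of these data known. Named genes are all members, Cnot9, Mettl3, Ythdf2, every tested gene of lists of 8 or fewer, and from longer lists the 4 smallest p and any called. Zbtb16, Slamf6, Trac, Klrb1c, Tbx21, Trav11, Traj18, Pax5, Itgam, Lyz2, Csf1r, Cd209a, Fcer1g, H2-Aa, H2-Ab1, H2-Eb1, Cd74, Ythdf1 and Ythdf3, and the genes that share sequence or exons with members, were named outside this rule after their values were seen. Libraries of a genotype differed beyond counting noise (chi-square per degree of freedom 27.0 in Mettl3KO and 42.5 in WT). Without molecular identifiers, reads do not stand for independent molecules.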

Additional observations from a re-analysis of the deposited data

How the results depend on the processing

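The count of CCR4-NOT subunits called was 0 in all 13 settings, including every library left out. The count of genes called across the table was less stable: against 368, it was 727 at 5 CPM or more in 2 libraries, 1341 by DESeq2, 33 with the replicate block and 41 to 172 with 1 library left out. The replicate numbers are not shown to pair the libraries (correlation of deviations of same-numbered libraries -0.024), and the block leaves 1 residual degree of freedom; with it 0 subunits were called and Ythdf2 had an adjusted p of 0.0847. The subunits' median log2 fold change was -0.065 with the gene-length trend removed, against 0.045, and 0.024 to 0.11 with 1 library left out. With the length trend removed, the median of all genes was -0.092. The values that turned sign in that setting were Cnot2 -0.0051, Cnot4 -0.052, Cnot6 -0.079, Cnot9 -0.034, Btg1 -0.058, Pde12 -0.10, Eif4g3 -0.071, Pabpc1 -0.091 and Pabpc4 -0.087. Pde12 was also -0.0033 without a low-count filter, -0.0042 by limma voom and -0.0017 with the replicate block. With 1 library left out, the values ran from -0.11 to 0.56 for Cnot1, -0.068 to 0.18 for Cnot4, -0.40 to 0.015 for Cnot10, -0.28 to 0.089 for Cnot11, -0.012 to 0.11 for Btg1, -0.13 to 0.11 for Pde12, -0.046 to 0.070 for Pabpc1, -0.086 to 0.14 for Pabpc4, -0.43 to 0.14 for Pan3, -0.70 to 0.059 for Parn and -0.88 to 0.15 for Angel1. Btg2 passed at 5 CPM or more in 2 libraries (adjusted p = 0.0231), with the length trend removed (0.0261) and without WT replicate 1 (0.0313). The causes of these shifts were not tested.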
